A study of Mus musculus with 36 samples.

Results

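Transcription outside the annotated genes was followed through closure of the mouse palate in 1158 regions. Separately, merging every assembled locus at 1 FPKM or more across 36 libraries, in genes or not, gave 15873 regions. FPKM is a level per length, the number of sequenced fragments scaled by transcript length and by all mapped fragments. A locus lay outside when it overlapped no gene span of any type in the GENCODE vM1 annotation of mm9. Merging only the outside loci at 1 FPKM or more gave 5160 regions. A region counted as seen in an animal when both lanes listed a locus there at 1 FPKM or more, and regions seen in at least 2 animals were kept. The members were thus chosen by their own level, which is described here and not tested as such. On the 2 sides of the threshold, 693 regions seen in exactly 1 animal were left out and 309 seen in exactly 2 were kept, and their highest FPKM in any library had medians of 2.03 and 2.42. The 67 regions seen in all 18 animals had a median of 9.09.

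The study sequenced poly(A)+ RNA from palatal shelves of C57BL/6 mouse fetuses that were TGFβ3-/-, TGFβ3+/- or wild type (WT), on embryonic days (E) 14.5, 15.5 and 16.5. TGFβ3-/- fetuses came from heterozygous matings, and PCR distinguished the mutated allele, which carries a neo insertion, from the WT allele. Each of the 9 groups held 2 animals, and each animal was sequenced in 2 lanes, which were averaged. The tissue was not separated into cell types, so fewer cells of a type and less RNA per cell cannot be told apart. By their titles the libraries of different ages were run in different lanes, so age and lane cannot be told apart. For 1 library of the E15.5 TGFβ3-/- replicate 1 animal, another source names a lane of E14.5 instead. A second label field gives another age for 3 of the 4 E15.5 TGFβ3+/- libraries, which were placed by their titles. Tgfb3 itself, the targeted gene, was at 30.4 to 43.5 FPKM in TGFβ3-/-, 28.5 to 37.4 in TGFβ3+/- and 27.6 to 35.3 in WT, so its level did not separate the genotypes. An FPKM over the whole locus does not check an insertion allele, and the groups rest on their labels.

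Markers of the palatal mesenchyme were present in every animal, with a summed level of 210 to 305 FPKM on E14.5 and 110 to 168 on E16.5. Over the same ages the sums did not overlap for epithelial markers (81.6 to 164 FPKM, then 299 to 543), macrophage markers (12.9 to 16.4, then 38.8 to 57.2), and olfactory and respiratory markers (1.01 to 6.78, then 151 to 335). The sums of skeletal muscle, cartilage, bone, neural and erythroid markers overlapped. Hba-a1, a globin gene, was at 0 throughout. Omp, of olfactory neurons, had a value in 1 animal only, at 13.9 FPKM. In the others its level was missing, which is not a level of 0, because an assembled locus there also covered another gene. The part of these shifts in the changes with age given here was not tested. The file headers give no read totals, and the totals listed with the paper were not used. The authors' 95% FPKM interval reached a median of 12.1% to 18.6% of the level to either side, by animal. It is not a plain measure of depth. At 18.6% the E16.5 TGFβ3-/- replicate 1 animal listed 28818 and 30380 loci by lane. At 18.0% the E15.5 WT replicate 2 animal listed 18695 and 18956. In the E15.5 WT replicate 2 animal, the lowest level listed outside genes was 0.982 FPKM, against 0.0775 to 0.426 in the other animals, and 567 members had no locus there.

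Poly(A)+ transcription beyond an annotation has several known sources. Transcripts can run past the annotated end of a gene, start in the opposite direction from its promoter, or come from genes of long noncoding RNA. Spliced messages that were copied back into the genome leave processed copies, and fragments of an abundant message can be placed on such a copy. The library kit did not mark strand, so a region and a gene close by cannot be told apart by direction.

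The sequences below show the kinds of region behind the changes with age, on the NCBIM37 (mm9) build. The first pair are stretches of regions matching coding messages, on the minus strand of chr1:130417581-130417880 and chr12:117231426-117231559, with capitals at the bases that differ from the transcript, 6 in the former and 3 in the latter. Transcript bases that a region lacks are neither marked nor counted.
Eef1a1 match: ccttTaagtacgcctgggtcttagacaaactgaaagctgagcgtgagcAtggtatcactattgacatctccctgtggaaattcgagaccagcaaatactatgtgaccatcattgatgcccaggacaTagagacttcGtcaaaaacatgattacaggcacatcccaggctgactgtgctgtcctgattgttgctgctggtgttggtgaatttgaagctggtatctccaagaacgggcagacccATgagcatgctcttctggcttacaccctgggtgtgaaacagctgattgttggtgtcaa
Odc1 match: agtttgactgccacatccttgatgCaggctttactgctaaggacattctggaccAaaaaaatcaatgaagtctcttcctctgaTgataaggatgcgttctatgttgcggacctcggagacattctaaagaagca
The next pair are the gaps of 125 and 129 bases between a region and the start of a transcription factor gene, at chr8:59799655-59799779 on the plus strand and chr3:153993616-153993744 on the minus strand, with CG dinucleotides in capitals. The former holds 13 CG, an observed over expected ratio of 1.29, and the latter 3 CG and a ratio of 0.43, against a median ratio of 0.22 over the members.
Hand2 gap: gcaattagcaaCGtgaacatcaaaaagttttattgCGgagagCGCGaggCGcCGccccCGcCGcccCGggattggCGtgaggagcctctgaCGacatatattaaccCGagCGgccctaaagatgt
Lhx8 gap: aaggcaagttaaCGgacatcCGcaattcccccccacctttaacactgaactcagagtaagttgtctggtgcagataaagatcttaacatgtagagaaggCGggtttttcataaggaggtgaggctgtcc
The next 3 are 180 bases around starts that RefSeq gives inside rising regions, at chr14:37923258-37923437 on the minus strand, chr16:5007231-5007410 on the plus strand and chr17:81295983-81296162 on the plus strand. The RefSeq promoters are on GRCm38.p6, and these starts were placed on NCBIM37 by an exact match of the sequence. Capitals are the 30 bases from the RefSeq start on. 2610528A11Rik: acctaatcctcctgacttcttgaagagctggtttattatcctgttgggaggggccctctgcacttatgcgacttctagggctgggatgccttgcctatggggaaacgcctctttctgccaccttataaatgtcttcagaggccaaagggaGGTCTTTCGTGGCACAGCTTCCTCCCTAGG
Smim22: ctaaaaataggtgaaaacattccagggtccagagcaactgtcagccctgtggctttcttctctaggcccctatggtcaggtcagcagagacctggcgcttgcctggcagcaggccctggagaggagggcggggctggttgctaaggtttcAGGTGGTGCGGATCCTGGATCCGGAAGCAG
C230072F16Rik: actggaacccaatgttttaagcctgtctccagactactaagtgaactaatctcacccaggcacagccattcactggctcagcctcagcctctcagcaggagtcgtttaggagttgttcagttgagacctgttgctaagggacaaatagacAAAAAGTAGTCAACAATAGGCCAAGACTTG
These sequences were chosen after the values of their regions had been seen.

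More regions were seen per animal on E16.5 than at the earlier ages. On E14.5 an animal showed 329 to 392 regions (362 ± 25.5, SD, n = 6), on E15.5 350 to 509 (390 ± 61.6, SD, n = 6) and on E16.5 475 to 657 (541 ± 62.1, SD, n = 6). The E16.5 animals did not overlap those on E14.5, and only the E15.5 TGFβ3-/- replicate 2 animal lay within their range. The mean was higher on E16.5 by 179 regions than on E14.5 and by 151 than on E15.5, and E15.5 exceeded E14.5 by 27.8. No test is given for these numbers, because being seen at 1 FPKM chose the members. The order rests on the 1 FPKM minimum. Without it 3594 regions met the rule, an animal showed 434 to 1979 of them, and the mean on E16.5 was lower by 28.0 than on E14.5 and by 109 than on E15.5.

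**Figure D1:**
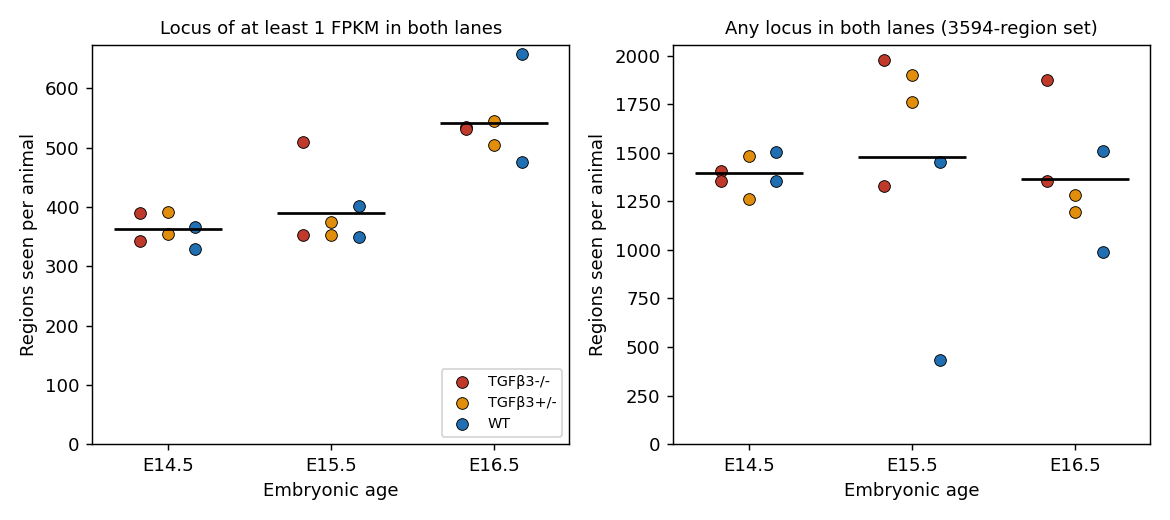
Regions seen in both lanes of each animal (vertical axis, number of regions) by age, with dots coloured by genotype and a line at the mean; the left panel uses loci of at least 1 FPKM and the right panel any listed locus. With the minimum the 6 E16.5 animals lie at 475 to 657, above all E14.5 animals; without it the ages overlap and the E15.5 WT replicate 2 animal is lowest at 434.

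Few regions were held in common by every group. All 9 groups showed 176 of the 1158 regions, and 23 were seen in a single group. Regions seen on E16.5 only numbered 195, against 26 on E14.5 only and 22 on E15.5 only. By genotype, 29 regions were seen only in TGFβ3-/-, 16 only in TGFβ3+/- and 44 only in WT. The mean number seen per animal differed from WT by 13.3 in TGFβ3-/- and by -9.33 in TGFβ3+/-, again without a test.

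Most regions lay close to a gene and were in part continuous with it. The nearest gene span was at a median distance of 1432.5 bases, with 672 regions on its downstream and 486 on its upstream side, read on the strand of that gene. Within 1 kb of a gene lay 522 regions, and 132 lay more than 50 kb away. In 700 of the 1158 regions (60.4%), at least 1 library held a single assembled locus that covered both the region and a gene. This share was 89.6% (250 of 279) downstream and 87.7% (213 of 243) upstream within 1 kb, and 26.5% (40 of 151) and 29.6% (37 of 125) at 5 to 50 kb. The 458 regions that were never joined to a gene were thus mostly the distant ones. A library with such a joined locus gives no value for the region, and 658 regions had a value in all 18 animals.

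**Figure D2:**
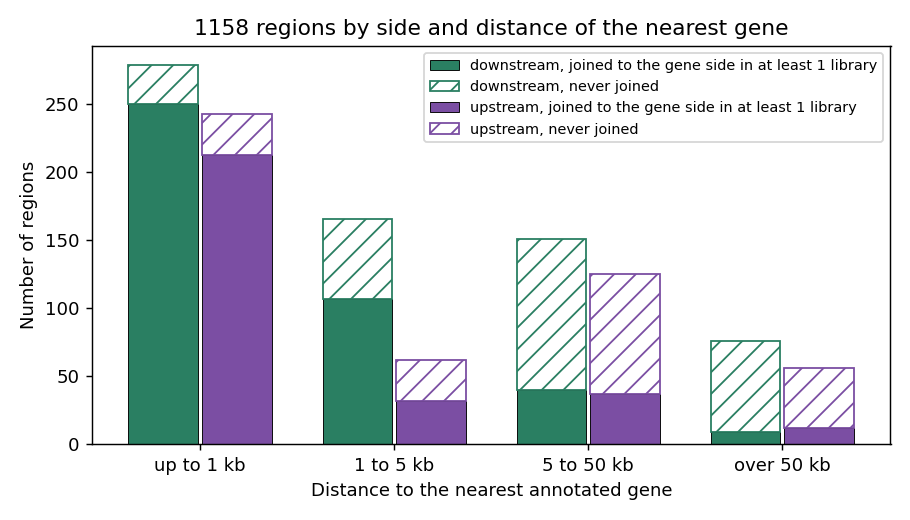
Number of regions (vertical axis) by distance to the nearest gene span and by side, split into regions joined to a gene by an assembled locus in at least 1 library and regions never joined. Of the 522 regions within 1 kb most were joined, whereas beyond 50 kb only 9 of 76 downstream and 12 of 56 upstream were.

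Region length ran from 107 to 346146 bases with a median of 2933.5, and the level, averaged over animals, had a median of 0.825 FPKM. It reached 10 FPKM in 57 regions and 100 in 21. Of the 1158 regions, 168 hold the start of a RefSeq gene and 113 match a coding transcript over at least 50% of their bases at 90% identity or more, while no region did both. The former were long (median 9502.5 bases) and the latter short (median 547 bases). The other 877 regions had a median length of 2937 bases.

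The 10 highest regions were short, and 6 of them match a coding transcript. Of these 10, 7 were under 200 bases, against 18 of all 1158. The highest mean level, 102133 FPKM, was on 107 bases at chr9:17538561-17538667, which match Prex2, and that at chr1:124253644-124253820 was 36750 FPKM on 177 bases. Those at chr16:17222406-17222599 (13500 FPKM) and chr6:49186414-49186621 (1882 FPKM) match Lars2, the mitochondrial leucyl-tRNA synthetase. The 1658 FPKM region at chr3:104393042-104393154 matches Slc38a6, an amino acid transporter gene, and was seen in only 4 animals. A further 4 were at chr1:104524745-104524917 (5134 FPKM), chr18:68851713-68851973 (3476 FPKM), chr18:8137319-8137436 (2234 FPKM) and chr3:5860332-5860780 (3926 FPKM). The last was seen in all 18 animals, and it was not compared with nuclear ribosomal RNA sequences. Averaged over animals, the matched genes were far below the regions that match them. Prex2 was at 2.30 FPKM, Lars2 at 193 and Slc38a6 at 24.2. A match thus does not show that a region's level comes from that message. Whether ribosomal RNA gave the levels of the 10 highest regions was not tested.

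The 3 longest regions lay far from genes. That at chr16:72027690-72373835 spans 346146 bases upstream of Robo1, an axon guidance receptor, and holds the RefSeq start of 8030451O07Rik. Its median level was 0.900 FPKM, 0.837 and 0.376 in the 3 ages in turn. The region at chr14:105038340-105357902 (319563 bases) holds the start of D130009I18Rik and had medians of 2.48, 1.50 and 1.37 FPKM. That at chr10:109653652-109892941 (239290 bases), upstream of Nav3, had medians of 1.23, 0.575 and 0.657 FPKM. In all 3 the ages overlapped and no age comparison passed the test.

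Between E14.5 and E16.5, 60 regions rose and 34 fell of 888 tested (limma on log2(FPKM + 1) with Benjamini-Hochberg adjustment over genes and regions, adjusted p under 0.05 and a change of at least 2-fold). These are 6.76% and 3.83% of the regions tested, where 8.49% and 0.781% of all genes and regions tested rose and fell. The 2 directions held different kinds of region. Those that rose had a median length of 6630 bases, 22 of the 60 hold a RefSeq start and none matches a coding transcript. Those that fell had a median length of 446.5 bases, 24 of the 34 were under 1 kb and 17 match a coding transcript. Of the 60, 51 were not seen on E14.5 and 42 were at 0 in all E14.5 animals, and of the 34, 22 were not seen on E16.5. Such regions entered through the age at which they were high, so the counts are descriptions. For the same reason a p is given below only for a named region that was seen in at least 2 animals at the age where it was lower, and the changes of the others are descriptions. The number of members under 1 kb listed per animal was 158 to 167 on E14.5 and 102 to 151 on E16.5, and its part in the calls was not tested.

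The earlier intervals gave fewer calls. From E14.5 to E15.5, 11 regions rose and 8 fell of 868 tested by the same limma test, where 3.37% and 0.233% of all features rose and fell. From E15.5 to E16.5, 38 rose and 6 fell of 884, where 2.47% and 0.101% of all features did. The 6 that fell in the latter interval all match coding transcripts and are 172 to 536 bases long. The count of 8 changed with single animals: leaving out E15.5 WT replicate 1 gave 17, leaving out E14.5 TGFβ3-/- replicate 2 gave 3, and 5 further animals gave 4 or 5. The count of 6 became 10 with E15.5 WT replicate 2 left out, and 3 with E15.5 TGFβ3+/- replicate 1, E16.5 TGFβ3-/- replicate 1 or E16.5 WT replicate 1 left out. The count of 11 became 7 when the E14.5 TGFβ3+/- replicate 2 animal was omitted, or the replicate 2 animal of E15.5 TGFβ3-/-. Taking a library with no locus as missing in place of 0 gave 9 rises and 7 falls from E14.5 to E16.5.

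**Figure D3:**
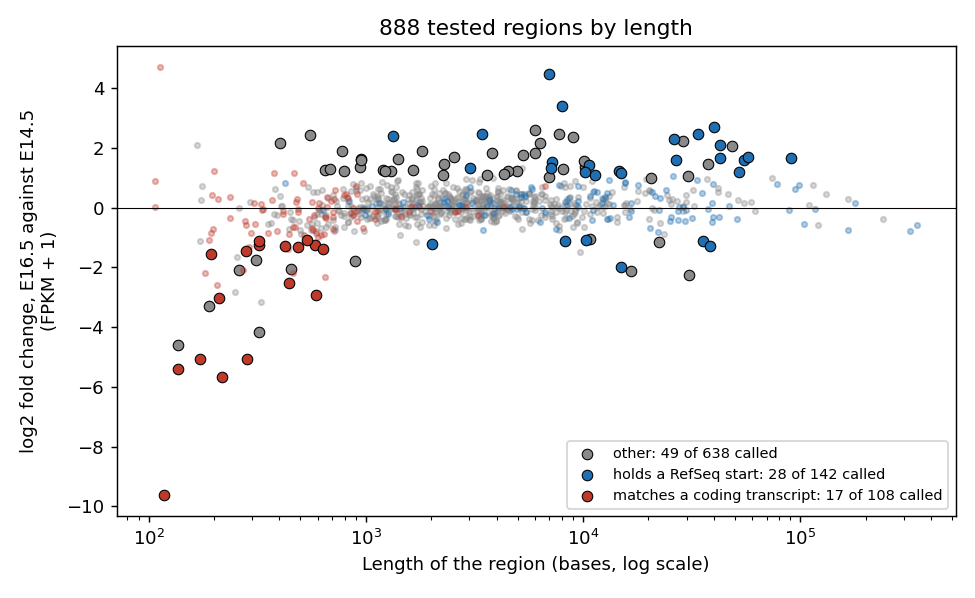
Length of each tested region (horizontal axis, bases, log scale) against its log2 fold change of FPKM + 1 from E14.5 to E16.5 (vertical axis), coloured by class, with called regions marked. Calls were 28 of 142 regions with a RefSeq start, 17 of 108 matching a coding transcript and 49 of 638 others; the falling coding matches sit at the short end and no coding match rose.

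Of regions that rose, the one with the largest fold change that can be given holds the start of 2610528A11Rik and lies upstream of Cdhr1, a cadherin gene. At chr14:37915328-37923357 its level was 0, 0 and 0.518 FPKM (lowest, median and highest of 6 animals) on E14.5, 1.36, 2.19 and 11.5 on E15.5, and 6.99, 11.4 and 15.9 on E16.5. No animal on E14.5 reached those of the later ages. The log2 fold change was 1.82 ± 0.33 (SE) to E15.5 and 3.40 ± 0.33 to E16.5. Cdhr1 changed by 0.53 (limma adjusted p = 0.0198).

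Smim22, which codes for a small membrane protein, has its RefSeq start at a region of 1339 bases, chr16:5007303-5008641. The level was 0, 0 and 1.45 FPKM on E14.5, 2.68, 3.74 and 6.79 on E15.5, and 3.78, 5.33 and 9.37 on E16.5, so the rise was in place by E15.5. Its log2 fold change was 1.93 ± 0.26 to E15.5 and 2.39 ± 0.26 to E16.5. The nearest annotated gene, Rogdi, changed by -0.21 (limma adjusted p = 0.155). Upstream of Dhx40, an RNA helicase gene, the region at chr11:86625247-86629058 was at 0.434, 0.729 and 1.10 FPKM, then 1.89, 2.52 and 3.64, then 3.37, 5.17 and 9.11. The 3 ages were in order and the first did not overlap the later ones. The log2 fold change to E16.5 was 1.82 ± 0.18 (limma adjusted p = 1.6e-05). That to E15.5, 1.01 ± 0.18 (limma adjusted p = 0.00297), fell under 2-fold when any of 4 animals was left out, namely E15.5 TGFβ3-/- replicate 2, E14.5 WT replicate 1, E14.5 TGFβ3+/- replicate 2 and E14.5 TGFβ3-/- replicate 1, and it was also under 2-fold in the second lanes alone and with the highest FPKM of its loci as the level. Dhx40 itself changed by 0.05 (limma adjusted p = 0.716).

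At 6 of the rising regions named here no locus was listed in any E14.5 animal, so no fold is given. The region at chr17:81295972-81336154, with the start of C230072F16Rik, went from 0 to 0.363, 2.31 and 3.55 FPKM on E15.5 and 2.84, 5.31 and 12.1 on E16.5. Of the other 5 regions, 4 were under 0.3 FPKM in every E15.5 animal, and the one downstream of Tln2 was at 0, 0.546 and 1.16. The region at chr7:28540680-28546675, downstream of the zinc finger gene Zfp60, was at 2.98, 4.84 and 9.35 FPKM on E16.5. On chr1:121113941-121162254, downstream of Inhbb, which codes for an activin subunit, the E16.5 levels were 2.34, 3.08 and 4.86 FPKM. Neither region overlapped between E16.5 and the earlier ages. The region at chr9:66995493-67003241, downstream of Tln2, a talin gene, was at 3.86, 4.37 and 5.62 FPKM on E16.5, that at chr13:99049836-99078603 beside Btf3 at 2.03, 3.81 and 5.89, and that at chr12:66288531-66314749, with the start of Gm31063, at 2.73, 3.92 and 6.24 in 5 animals (the remaining animal had a joined locus and was left out). The changes of nearby genes from E14.5 to E16.5 are given as descriptions. The regions were chosen for their large changes, and the difference between region and gene was not tested. Inhbb lay 149788 bases and Tln2 61653 bases from its region. Wdr20b, joined to the region with the start of Gm31063 in 4 libraries, changed by 0.64 (limma adjusted p = 0.0952). Ankra2, joined to the region beside Btf3 in 1 library, changed by 0.42 (limma adjusted p = 0.0133). Inhbb changed by 0.65 (limma adjusted p = 0.000534), Zfp60 by -0.24 (limma adjusted p = 0.204), Tln2 by -0.15 (limma adjusted p = 0.266), Btf3 by -0.38 (limma adjusted p = 0.0684) and Tmem178, beside C230072F16Rik, by -0.50 (limma adjusted p = 0.0585).

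Among regions that fell, 3 lie directly beside transcription factor genes of the palatal mesenchyme and moved in the same direction as those genes. Hand2 codes for a basic helix-loop-helix factor of the neural crest and limb, and a noncoding RNA is known to start from the opposite strand at its promoter. The region at chr8:59783060-59799654 ends at the 125-base gap shown above. Its level was 2.47, 3.64 and 3.88 FPKM on E14.5, 0, 0.218 and 2.26 on E15.5, and 0, 0 and 0.0135 on E16.5, and no later animal reached the E14.5 range. The log2 fold change was -1.54 ± 0.27 to E15.5 (limma adjusted p = 0.00270) and -2.12 ± 0.27 to E16.5. Hand2 itself changed by -2.01 (limma adjusted p = 0.000612), from a median of 5.10 to 0.279 FPKM. No library joined the region to Hand2.

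Lhx8, a LIM homeobox factor needed for palate formation, is divided by the 129-base gap from the region at chr3:153993745-153998757, which holds the RefSeq start of AI606473. It was joined to Lhx8 in 23 libraries, which left values in 4, 5 and 3 animals by age. These were 16.9, 21.0 and 23.5 FPKM on E14.5, 4.79, 6.41 and 12.5 on E15.5, and 3.74, 4.88 and 5.44 on E16.5, with no overlap between E14.5 and the later ages. The region was seen in both lanes of 0 animals on E14.5, 3 on E15.5 and 3 on E16.5. Each E14.5 value thus rests on a locus of at least 1 FPKM in 1 lane only. As 23 of the 36 libraries were joined, nearly all of the 12 values rest on 1 lane, including those on E15.5 and E16.5. The log2 fold change to E15.5 was -1.20 ± 0.23 (limma adjusted p = 0.0150), and that to E16.5 was not tested for want of animals. Lhx8 changed by -1.30 from E14.5 to E16.5 (limma adjusted p = 0.00750). Barx1, a homeobox factor, has the region with the start of Gm36606 at chr13:48747883-48758206, 161 bases upstream. It was at 9.91, 12.7 and 16.1 FPKM on E14.5, 4.99, 6.22 and 8.27 on E15.5, and 3.10, 5.97 and 9.00 on E16.5. The later ages overlapped each other and not E14.5. The log2 fold change to E16.5 was -1.06 ± 0.12 (limma adjusted p = 3.3e-05), which went just under 2-fold without E16.5 TGFβ3+/- replicate 1 or E16.5 WT replicate 2. Barx1 changed by -1.18 (limma adjusted p = 8.1e-05).

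A further 2 long regions fell between E14.5 and E15.5. That at chr3:66172548-66210880, with the start of Gm35184, was at 0.938, 1.83 and 2.64 FPKM on E14.5 and 0, 0.238 and 0.538 on E15.5, a log2 fold change of -1.14 ± 0.19, which was -0.91 with absent loci taken as missing. That at chr8:72078426-72109220, downstream of Zfp868, varied widely, with 6.92, 40.0 and 107 FPKM on E14.5 against 2.09, 3.12 and 6.16 on E15.5. Its log2 fold change was -2.79 ± 0.53 (limma adjusted p = 0.00437) and was not called from the second lanes alone.

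The other falling regions named here match the messages of abundant genes. Their levels and those of the genes are given side by side, and the difference between a region and its gene was not tested. Hmgb1 codes for a chromatin protein, and a 285-base match at chr17:82590807-82591091 (94.0% identity) was at 17.2, 33.5 and 63.2 FPKM on E14.5, 0, 15.8 and 47.9 on E15.5 and 0 in all 6 animals on E16.5, so no fold is given. A shorter match at chr19:37796602-37796818 (99.1% identity) was at 44.9, 78.1 and 115 FPKM on E14.5 and 0, 0 and 8.71 on E16.5 (log2 fold change -5.68 ± 1.07). Hmgb1 itself changed by -0.19 (limma adjusted p = 0.294). Both matches were at 0 in most E16.5 animals, while the gene averaged 158 FPKM over all animals.

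Odc1, the rate-limiting enzyme of polyamine synthesis, has a 137-base match at chr12:117231423-117231559, in part shown above. It was at 111, 169 and 217 FPKM on E14.5, 0, 161 and 244 on E15.5 and 0, 0 and 93.8 on E16.5. The log2 fold change of -5.39 ± 1.71 from E14.5 to E16.5 was no longer called without any 1 of 4 animals, which were E14.5 TGFβ3-/- replicate 2, E14.5 TGFβ3+/- replicate 2, E16.5 TGFβ3+/- replicate 2 and E16.5 WT replicate 1. Odc1 changed by -0.50 (limma adjusted p = 0.000179). The 536-base match to Eef1a1, a translation elongation factor, at chr1:130417345-130417880 was at 0.799, 1.62 and 2.28 FPKM on E14.5, 1.05, 1.98 and 2.84 on E15.5 and 0, 0 and 0.843 on E16.5. It fell by 1.28 ± 0.18 on the log2 scale from E15.5, a call not made from the second lanes alone, while Eef1a1 changed by -0.01 from E14.5 to E16.5 (limma adjusted p = 0.956). A 118-base match to Skp1a, a ubiquitin ligase subunit, at chr18:8137319-8137436 went from 1386, 2301 and 6527 FPKM on E14.5 to 0, 0 and 1006 on E16.5, and was called in neither lane alone. Over 86 coding matches with values for region and gene, the median log2 fold change from E14.5 to E16.5 was -0.27 for the regions and -0.18 for the genes (Pearson r = 0.20, across regions, which share genes). Of these 86, 14 were called and fell and none rose.

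**Figure D4:**
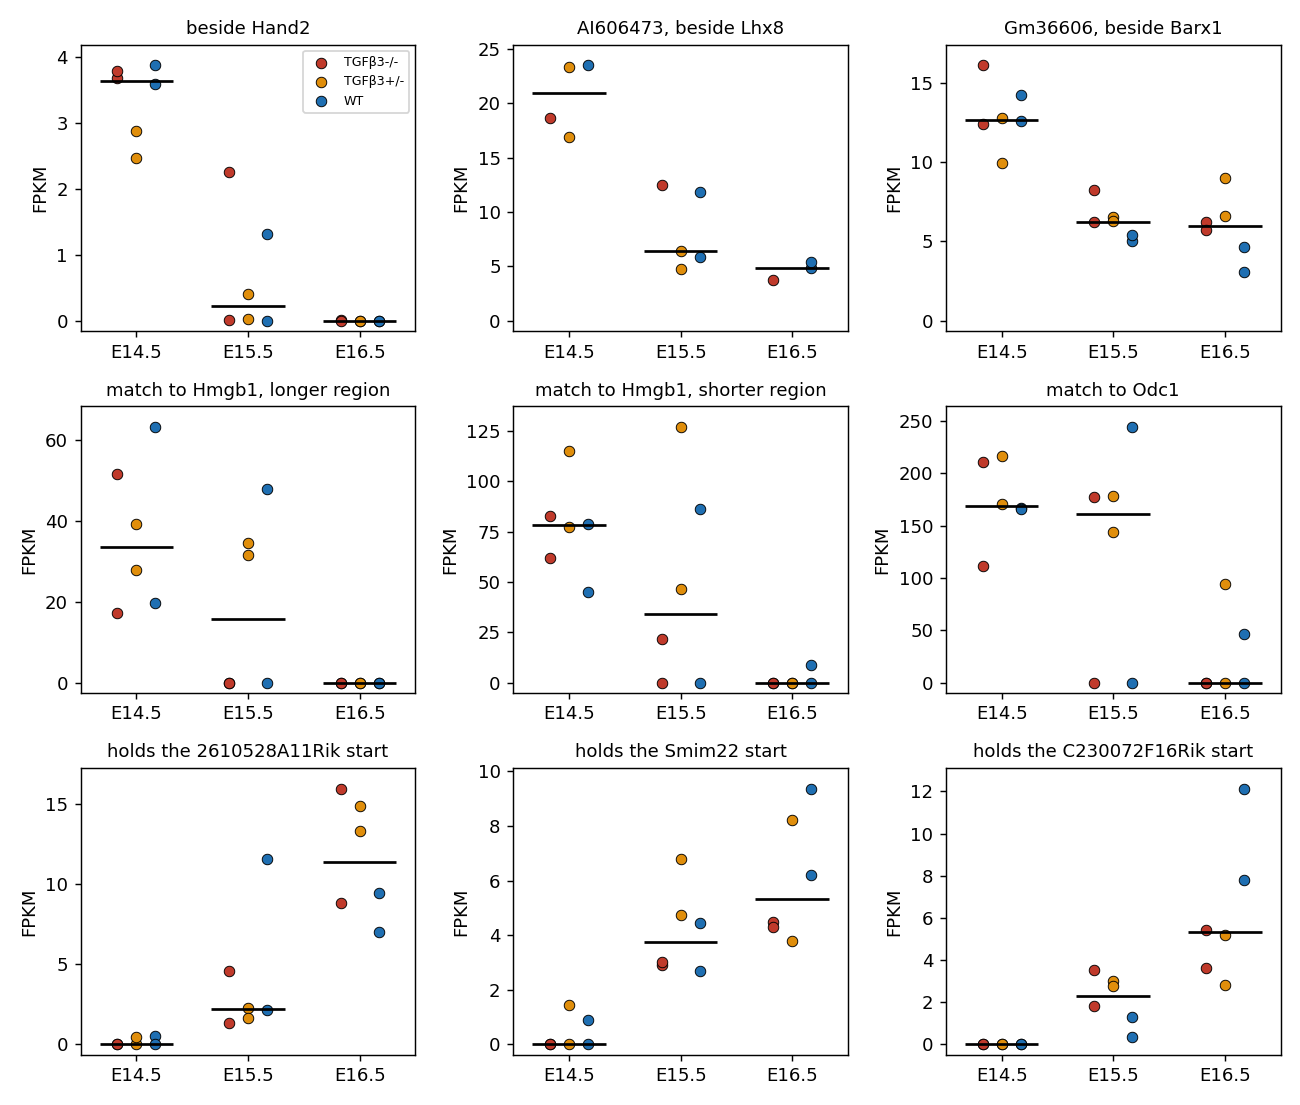
FPKM (vertical axis) of 9 named regions by age in each animal, with dots coloured by genotype and a line at the median. The regions beside Hand2, Lhx8 and Barx1 and the matches to Hmgb1 and Odc1 are lower on E16.5 than on E14.5, and those with the starts of 2610528A11Rik, Smim22 and C230072F16Rik are higher.

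Counted by their nearest gene only, 6 regions lay within 50 kb of 5 of the 40 palatal mesenchyme genes considered (Lhx8, Barx1, Hand2 and Pax3 among them). From E14.5 to E15.5, 2 of the 6 fell and none rose, where 0.233% of all features fell, with a median log2 fold change of -0.49 against 0.01 over all features. From E14.5 to E16.5, 2 of 5 tested fell, where 0.781% of all features did, with a median of -0.47 against 0.04. Imprinted genes had 3 regions, and neither of the 2 tested was called in any age comparison. Beside Peg3, a zinc finger gene, the region at chr7:6683265-6723015 with the start of Usp29 averaged 4.70 FPKM. Beside Cdkn1c, a cell cycle inhibitor gene, that at chr7:150647268-150652611 averaged 1.72 FPKM. The region downstream of Snrpn at chr7:67114095-67122341 was joined to a gene in 34 of 36 libraries, and so were both regions beside Elavl4, a neuronal RNA-binding protein gene, in 28. No member had a gene considered for TGFβ signaling, epithelium or skeletal muscle as its nearest gene within 50 kb. Listed genes that lay farther from a region than its nearest gene were not looked for.

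The shifts of regions and of the genes they were joined to were set side by side. Over 336 regions with values for both, the log2 fold changes from E14.5 to E16.5 had a Pearson r of 0.44 across regions. Both values come from the same libraries and, in part, from the same transcript, and no p is given. Of 15 of these regions that were called, 13 had the sign of their gene, and in 6 the gene was called as well. For downstream neighbours r was 0.30 within 5 kb (265 regions) and -0.04 beyond 50 kb (175 regions). For upstream neighbours it was 0.38 (188 regions) and 0.11 (178 regions).

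**Figure D5:**
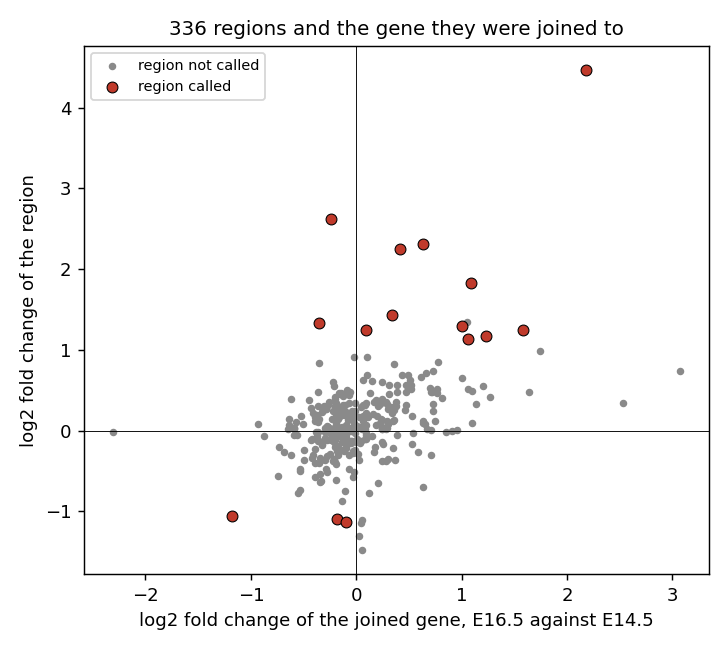
Log2 fold change of FPKM + 1 from E14.5 to E16.5 of a region (vertical axis) against that of the gene it was joined to in at least 1 library (horizontal axis), 336 regions. The points lean along the diagonal, with a Pearson r of 0.44 as a description.

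No region was called between genotypes averaged over the ages. In TGFβ3-/- against WT, averaged over the ages, no region of 891 tested was called, and neither was any gene (0% of all features). At an unadjusted p under 0.05 limma gave 68 of the 891 regions, 7.63%, against 5.82% of all features. In TGFβ3+/- against WT it was 0 of 878 regions, with 0.00727% of all features called and 37 regions, 4.21%, at an unadjusted p under 0.05 against 2.46% of all features. The difference between TGFβ3-/- and WT in their change from E14.5 to E16.5 was called in 0 of 904 regions and 0% of features, with 58 regions, 6.42%, at an unadjusted p under 0.05 against 5.85% of all features. Within genotypes, that change was called in 87 regions in TGFβ3-/-, 62 in TGFβ3+/- and 90 in WT. The 3 counts were not compared by a test, and each rests on 2 animals against 2: leaving out an animal gave 45 (E14.5 TGFβ3-/- replicate 2) or 49 (E16.5 TGFβ3-/- replicate 1), 38 (E14.5 TGFβ3+/- replicate 2) and 58 (E14.5 WT replicate 2). Of all features, 8.72%, 6.51% and 9.54% were called in these comparisons.

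At single ages, TGFβ3-/- differed from WT in 0 of 949 regions on E14.5, 1 of 971 on E15.5 and 0 of 974 on E16.5, with 0.00709%, 0.0701% and 0.007% of all features called. Regions at an unadjusted limma p under 0.05 numbered 17, 146 and 95. These are 1.79%, 15.0% and 9.75% of the regions tested, against 2.69%, 6.75% and 9.72% of all features. The call was a 335-base region at chr15:98601140-98601474, 710 bases downstream of Wnt10b, a Wnt ligand gene, named here after its values were seen. At E15.5 it was at 5.34 and 6.36 FPKM in TGFβ3-/-, at 3.54 and 2.76 in TGFβ3+/- and at 0 in WT replicate 2, and WT replicate 1, which had a joined locus, was left out of the fit. The value at 0 is that of the animal with 567 members at 0, so the call rests on 1 animal. The median log2 difference of all regions on E15.5 was 0.23 between TGFβ3-/- and WT. It was 0.05 without E15.5 WT replicate 2, which leaves 1 WT animal of that age. Differences that 2 animals a group cannot resolve would not have been called.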

How the data were processed

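The authors mapped paired-end reads of 36 libraries to mm9 (NCBIM37) with TopHat 1.4.1, assembled each library separately with Cufflinks 1.3.0 and deposited a table of loci with FPKM and its 95% interval; the submitters' processing notes also name FastQC 0.10.1. No read counts were used. Loci were set against GENCODE vM1 gene spans and merged over libraries with Python 3.11.15. The level of a region in a library was the sum of FPKM times locus length over its loci outside genes, divided by region length, 0 with no locus and missing where a locus also covered a gene. The 2 lanes of an animal were averaged, or the other lane was used where 1 was missing. Regions and genes (15089 features) were fitted together on log2(FPKM + 1) with limma 3.58.1 in R 4.3.3, all 18 animals, a mean for each group and a mean-variance trend, with Benjamini-Hochberg adjustment over all features; fold changes on this scale understate those of low regions. Comparisons of ages averaged the genotypes, and the reverse, 6 animals against 6. Coding matches came from blastn 2.17.0+ (at least 90% identity). Merging and limma were tested on simulated data. The members and lists were chosen with earlier results of these data known. Regions named were the 10 highest, the 3 longest, up to 4 called changes a direction and comparison without overlap of animals, and up to 3 a list; genes named as matches or RefSeq starts were chosen after the values were seen. Alternatives covered pseudocount, minimum level, missing values, scaling, merging, lanes, samples fitted, calling rule, replicate block and each animal left out. Exact permutation tests of the numbers of regions seen were planned and are not reported, because that number chose the members. The results of 2 of the regions chosen by this rule are not reported here.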

Additional observations from a re-analysis of the deposited data

Results flagged for a closer look

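In the E15.5 TGFβ3-/- replicate 2 animal, 509 regions were seen in both lanes, above the 350 to 402 of the other 5 animals of that age. Dixon's rule over 6 animals, which chance passes in about 1 in 20 groups, flagged this animal. The flag is not read as a test, because being seen at 1 FPKM chose the members. Without this animal the mean at E15.5 was 4.03 regions above that at E14.5.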

How the results depend on the processing

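The number of regions was 1158 by the rule, 3594 with no FPKM minimum, 463 at 2 FPKM or more, 359 at least 5 kb from any gene and 1035 to 1153 with each animal left out. For age, calls are given as up and down, in the order E15.5 against E14.5 (11 and 8), E16.5 against E15.5 (38 and 6) and E16.5 against E14.5 (60 and 34). A pseudocount of 0.1 gave 53 and 23, 69 and 11, and 134 and 59. Absent loci taken as missing, which leaves fewer animals, gave 4 and 4, 11 and 3, and 9 and 7. Adjusted p alone gave 57 and 35, 79 and 11, and 149 and 104. A level of 1 FPKM in 6 animals gave 22 and 38 calls up in the latter comparisons, and the second lane or only the groups compared gave 5 and 4 calls down in the first. With each animal left out the ranges were 7 to 12 and 3 to 17, 32 to 43 and 3 to 10, and 57 to 69 and 26 to 36. Within genotypes (87 in TGFβ3-/-, 62 in TGFβ3+/- and 90 in WT), absent loci as missing gave 30, 9 and 26, and each animal left out 45 to 93, 38 to 71 and 58 to 103; in WT, 1 FPKM in 6 animals gave 52, only the groups compared 20 and adjusted p alone 138. The 0 calls of TGFβ3-/- against WT became 2 (pseudocount), 1 (no minimum), 1 (first lane), 3 (only the groups compared) and 0 to 4 (animals left out; 4 without E16.5 TGFβ3+/- replicate 1 or 2, 3 without E15.5 WT replicate 1). Those of TGFβ3+/- against WT became 3 (pseudocount), 1 in either lane, 1 (adjusted p alone) and 0 to 2 (2 without E15.5 WT replicate 1 or E16.5 TGFβ3+/- replicate 1). Those of the interaction became 1 (pseudocount, no minimum or only the groups compared), 2 (first lane) and 0 to 2 (2 without E16.5 TGFβ3-/- replicate 2 or E16.5 TGFβ3+/- replicate 1 or 2). TGFβ3-/- against WT at E14.5 went from 0 to 1 (no minimum, or regions joined), 2 (first lane) and 0 to 2 (2 without E14.5 WT replicate 1). At E15.5 it went from 1 to 7 (pseudocount), 4 (no minimum), 0 (1 FPKM in 6 animals), 3 and 2 (first and second lane) and 0 to 26 (26 when E15.5 WT replicate 1 was left out, 3 when its replicate 2 was). At E16.5 it went from 0 to 2 (pseudocount), 3 (no minimum), 1 (missing, scaling, first lane or only the groups compared) and 0 to 11 (11 without E16.5 TGFβ3-/- replicate 2). The cause of these shifts was not tested beyond the fewer animals or regions that a setting leaves.

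The difference in regions seen per animal turned round without the FPKM minimum, to -109 for E16.5 against E15.5 and -28.0 for E16.5 against E14.5. For TGFβ3+/- against WT it went from -9.33 to 36.3 in either lane, 274 without the minimum and -34.2 to 36.1 with animals left out (36.1 without E16.5 WT replicate 1), and for TGFβ3-/- against WT from 13.3 to a range of -6.83 to 58.8. With animals left out the age differences stayed at 4.03 to 35.8, 128 to 175 and 156 to 192.

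Replicate numbers do not pair the animals (36 pairs of groups, r from -0.29 to 0.28, 6 of them over 0.1). Replicate number as a block gave 10 and 8, 38 and 5, and 60 and 35 age calls, 79, 58 and 85 within genotypes, and 0 in place of 1 for TGFβ3-/- against WT at E15.5. For the named regions, 812 repeats kept the direction and side of the threshold, 56 lost the call and 0 turned direction, which says nothing of stability for regions that entered through the age at which they were high. With 2 animals a group and a median FPKM interval of 47.0% to 48.5% of the level for loci outside genes, small changes of low regions cannot be resolved.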
